A study of Mus musculus with 26 samples.

Results

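The genes described here are 10 mouse genes that mark macrophages or belong to the class II antigen presentation machinery: Csf1r, Adgre1, Cd68, C1qa, C1qb, C1qc, Mrc1, Cd74, H2-Aa and H2-Ab1. They were taken by name, and all 10 were among the 21275 genes of the testis table. RNA-seq of testis compared 2 wildtype (WT) libraries, WT1 and WT2, with 2 libraries from mice with a conditional knockout (cKO) of Tex10, cKO1 and cKO2. Both groups were untreated and on the C57BL/6N strain. The labels used here do not give the animals' ages, the Cre driver, the cells in which the gene was deleted or whether animals were pooled, so p-values measure the spread between these libraries, which may be technical. The question was whether transcripts of immune cells were higher in knockout testis, and by more or less than transcripts of the testis's other somatic cells. Another 22 libraries of the series come from 129Sv/J cultures, EpiLCs (epiblast-like) and the PGCLCs (resembling primordial germ cells) derived from them, and served only to view the same genes in cultures. They are 2 untreated EpiLC libraries, 2 libraries each with DMSO or 500 nM dTAG13 at day 2 and day 4, and an empty vector (EV) and 2 Tex10 overexpression clones (OE1, OE2), 1 library of each, for EpiLCs and day 2, 4 and 6.

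Macrophages are the main resident leukocytes of the testis, where they lie between the seminiferous tubules beside the Leydig cells and along the tubule walls. They depend on signals through the receptor encoded by Csf1r, take up dying cells and debris, and make complement component C1q, which tags such material for uptake. Cells that present antigen load peptides onto class II molecules, heterodimers such as that of H2-Aa and H2-Ab1, with the help of the invariant chain encoded by Cd74. The spermatogenic tubules around them are mostly germ cells, so the RNA of a whole testis is dominated by germ cell transcripts.

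The promoter of H2-Aa is shown because class II genes are known to share an X box and a Y box, and because H2-Aa was among the genes that rose. Those of C1qb and C1qc are shown because these neighbouring genes encode chains of 1 protein, and C1qc was called in cKO testis while C1qb was not. The promoter sequences are from RefSeq (GRCm38.p6, the build also called mm10), on the minus strand, each running from 250 bases before to 50 bases after the annotated start. A promoter was found for 5 of the 10 genes. In H2-Aa (chr17:34287774-34288073) the capitals mark TGACGTCA, the palindrome found in X2 elements of such promoters, and ATTGG, the reverse complement of CCAAT, the core of the Y box. In C1qb (chr4:136886151-136886450) and C1qc (chr4:136892865-136893164) they mark AGGAAG or its reverse complement CTTCCT, a core of the kind that ETS factors such as PU.1, a regulator of macrophage genes, recognise.
H2-Aa: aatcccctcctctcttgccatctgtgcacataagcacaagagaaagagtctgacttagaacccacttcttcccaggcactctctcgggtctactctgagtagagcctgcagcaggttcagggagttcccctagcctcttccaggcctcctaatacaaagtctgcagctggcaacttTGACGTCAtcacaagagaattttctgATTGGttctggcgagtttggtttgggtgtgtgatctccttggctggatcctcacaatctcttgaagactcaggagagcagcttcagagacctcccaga
C1qb: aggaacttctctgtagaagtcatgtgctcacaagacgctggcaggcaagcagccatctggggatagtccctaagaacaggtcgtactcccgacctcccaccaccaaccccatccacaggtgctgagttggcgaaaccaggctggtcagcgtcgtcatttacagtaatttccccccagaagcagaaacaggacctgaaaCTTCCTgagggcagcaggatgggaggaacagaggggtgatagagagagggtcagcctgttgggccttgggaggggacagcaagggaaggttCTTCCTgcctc
C1qc: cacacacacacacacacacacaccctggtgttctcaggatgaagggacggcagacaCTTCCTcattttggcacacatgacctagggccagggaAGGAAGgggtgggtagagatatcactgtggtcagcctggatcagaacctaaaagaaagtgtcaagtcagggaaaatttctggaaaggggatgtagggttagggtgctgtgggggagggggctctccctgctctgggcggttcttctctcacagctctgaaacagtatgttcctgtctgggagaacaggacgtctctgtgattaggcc
The 3 motifs were chosen after the sequences had been read, were searched on both strands, and do not overlap each other in these windows. Of all 32851 promoters of 300 bases, 1.79% hold TGACGTCA, 37.41% hold CCAAT and 35.35% hold AGGAAG, so the last 2 are common. C1qb and C1qc each hold 2 matches to AGGAAG, and H2-Aa holds none. Of the promoters found but not shown, Mrc1 holds 3 matches to AGGAAG and 1 to CCAAT. Cd68 holds none to AGGAAG and 3 to CCAAT, so these motifs do not separate the macrophage genes from H2-Aa. These matches describe the letters in the windows and are not binding data.

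Tex10 itself checked the labels. It was at 79.1 in WT1, 44.1 in WT2, 29.8 in cKO1 and 27.3 in cKO2, as CPM, reads scaled to a common library size, after a TMM correction of that size. This is a log2 fold change of -1.025 (standard error 0.214, limma adjusted p 0.00318), and both cKO libraries lay below both WT libraries. Its exons overlap those of Invs. All levels below are in this TMM-scaled CPM, and all fold changes are cKO against WT on the log2(value + 1) scale, which understates the change of low genes. P-values are from limma, adjusted by the Benjamini-Hochberg method over the 20658 genes tested, those with a mean of at least 1. Calls were made below an adjusted p of 0.05. The 4 libraries held between 6058987 and 7272313 reads in the table. A floor of 3 reads corresponded to levels between 0.381 and 0.514, which covers counting error only. Germ cell lists moved in different directions. Spermatid genes were lower in cKO, 7 of 8 in the round and 8 of 9 in the elongating spermatid list, whose summed level was 25020 and 27950 in WT and 17790 and 18570 in cKO. Spermatocyte genes were split, 2 higher and 2 lower of 10, and 5 of 9 spermatogonia genes rose and none fell, with sums of 174.6 and 164.3 in WT and 245 and 247.8 in cKO. Their part in the results below was not tested. In bulk RNA, more or fewer cells of a type cannot be told apart from more or less RNA per cell.

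Of the 9 macrophage and class II genes tested, 6 rose in cKO testis: Cd74, C1qc, C1qa, H2-Aa, Mrc1 and Csf1r, with log2 fold changes from 0.72 to 1.84. None fell, also at an unadjusted p under 0.05, and edgeR and DESeq2 likewise called 6 higher and 0 lower. After quantile normalization 4 were called (Csf1r, C1qa, C1qc and Cd74), and without limma's variance trend 1 (C1qc), with none lower. C1qb, H2-Ab1 and Cd68 were tested and not called, and Adgre1 was below the level at which genes were tested. The median of the 9 was 0.78, beside 0.01 over all tested genes. Among all tested genes 16.1% were called higher and 13.1% lower, 29.1% in all. For 7 of the 10 genes both cKO libraries lay above both WT libraries, a pattern seen in 34.8% of all tested genes. The summed level of the 10 genes was 90.9 and 75.8 in WT1 and WT2, and 211 and 132 in cKO1 and cKO2. The cKO libraries were unequal: cKO1 was above cKO2 for 10 of 10 genes, against 54.7% of all tested genes. Without cKO1 the median log2 fold change of the 9 tested genes was 0.57, and without cKO2 that of 10 genes was 1.00. Over all tested genes the median was 0.02 in each of these fits. Fewer of the macrophage and class II genes were called without cKO1, as was also so for all tested genes.

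**Figure D1:**
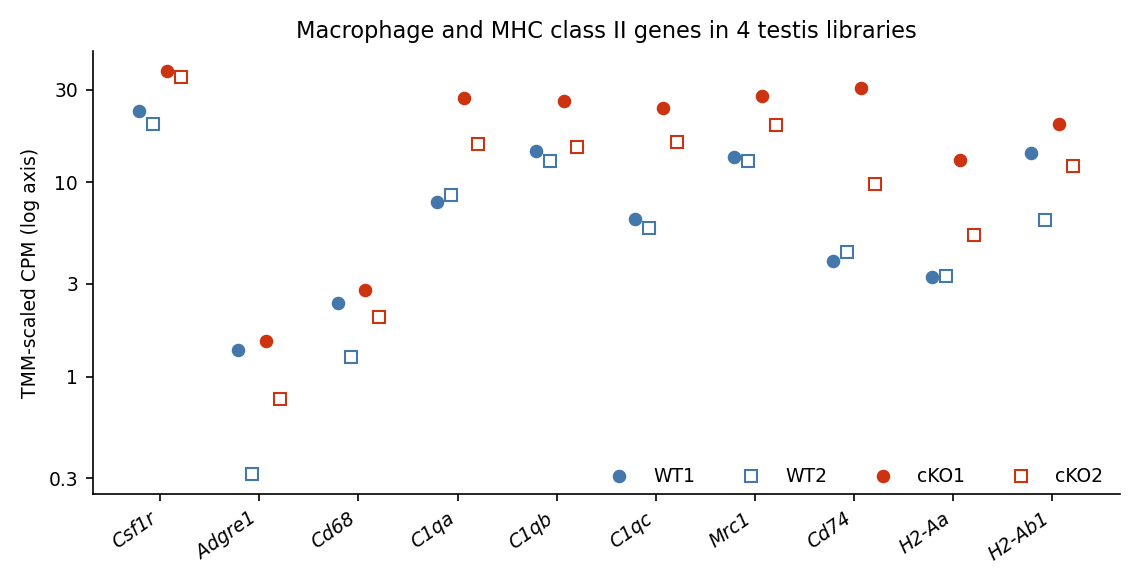
Level of each of the 10 genes in the 4 testis libraries, in TMM-scaled CPM on a log axis, 1 point per library (filled for library 1 and open for library 2 of each group). Both cKO points lie above both WT points for 7 genes, and cKO1 is the highest library for each gene.

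Among the receptors, Csf1r, which receives the macrophage growth factors CSF1 and IL-34, had the highest levels. It was at 23.3 and 19.9 in WT1 and WT2 and at 37.5 and 34.8 in cKO1 and cKO2. The groups did not overlap, and the cKO libraries were close together. The means were 21.6 ± 2.37 in WT and 36.1 ± 1.88 in cKO (SD, n = 2 each), a log2 fold change of 0.72 (standard error 0.168, limma adjusted p 0.00615). Csf1r was called under each leave-one-out fit, with log2 fold changes from 0.61 to 0.83. Its exons overlap those of Hmgxb3 in the annotation, and the strand setting of the read counting is not given in the sources used here, so reads from the overlap could belong to either gene.

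Mrc1 encodes the mannose receptor CD206, a scavenger receptor of resident tissue macrophages. It was at 13.5 and 12.9 in WT and at 27.7 and 19.8 in cKO1 and cKO2. Each cKO library exceeded both WT libraries, with cKO1 well above cKO2. It rose by 0.78 on the log2 scale (standard error 0.211, limma adjusted p 0.0131). Without cKO1 it was 0.55 and not called (limma adjusted p 0.192, range over 13 alternatives 0.00406 to 0.192).

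The other surface and lysosomal markers were scarce. Adgre1, which encodes the adhesion receptor F4/80, had 8 and 2 reads in WT1 and WT2 and 11 and 6 in cKO1 and cKO2. These are levels of 1.37, 0.314, 1.53 and 0.762, and they overlap. Cd68, a lysosomal membrane glycoprotein abundant in macrophages, was at 2.40 and 1.26 in WT and at 2.79 and 2.03 in cKO, from 8 to 20 reads per library. Its groups overlapped too, and the log2 fold change of 0.29 (95% interval -0.48 to 1.07, limma adjusted p 0.582) leaves a change in either direction possible at this depth. The best known macrophage marker of the 10, F4/80, therefore carries no usable signal here.

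The C1q genes encode the A, B and C chains of 1 complement protein. They stand in a row on the minus strand of chromosome 4 in mm10, C1qb at chr4:136880129-136886187, C1qc at chr4:136889804-136893065 and C1qa at chr4:136895917-136898803. C1qc, the C chain, was at 6.51 and 5.81 in WT1 and WT2 and at 24.1 and 16.1 in cKO1 and cKO2. Its groups were far apart, with a log2 fold change of 1.54 (standard error 0.252, limma adjusted p 0.000728), and it was called under each leave-one-out fit. C1qa, the A chain, was at 7.88 and 8.63 in WT and at 27.0 and 15.8 in cKO, a log2 fold change of 1.23 (standard error 0.257, limma adjusted p 0.00324). Without cKO1 this was 0.86, short of a call (limma adjusted p 0.0674, range over 13 alternatives 7.423e-05 to 0.0674). C1qb, the B chain, was at 14.6 and 12.9 in WT and at 26.2 and 15.2 in cKO. Its cKO2 library was only slightly above WT1, and its log2 fold change of 0.52 was not called (95% interval -0.01 to 1.04, limma adjusted p 0.127). Without cKO2 the log2 fold change of C1qb was 0.89, and without cKO1 it was 0.15.

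The ratios between the chains were compared within each library. C1qc over C1qb was 0.447 and 0.451 in WT1 and WT2 and 0.920 and 1.06 in cKO1 and cKO2. C1qa over C1qb was 0.541 and 0.671 in WT and 1.03 in each cKO library. C1qa over C1qc was 1.21 and 1.49 in WT and 1.12 and 0.976 in cKO. The first 2 ratios share C1qb as denominator and were higher in cKO, the third was lower, and none overlapped between the groups. An exact two-sided permutation test of 2 against 2 libraries cannot go below 0.333, and all 3 ratios were at that value, so this test cannot show whether they differ. These ratios were computed after the levels had been seen, among 5 such ratios. H2-Aa over H2-Ab1 was 0.229 and 0.512 in WT1 and WT2 and 0.653 and 0.442 in cKO1 and cKO2, so its groups overlapped. Cd74 over Csf1r was 0.169 and 0.220 in WT and 0.818 and 0.281 in cKO, without overlap.

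Cd74, the invariant chain that guides class II molecules to the compartment where they are loaded, had the highest log2 fold change of the 10 with all 4 libraries. It was at 3.94 and 4.39 in WT1 and WT2, at 30.6 in cKO1 and at 9.78 in cKO2. The WT libraries were nearly equal and the cKO libraries 3.13-fold apart. The means were 4.17 ± 0.323 in WT and 20.2 ± 14.8 in cKO (SD, n = 2 each), a log2 fold change of 1.84 (standard error 0.386, limma adjusted p 0.00326). Without cKO1 the log2 fold change was 1.06 and not called (limma adjusted p 0.0635, range over 13 alternatives 4.279e-08 to 0.0681), and without cKO2 it was 2.62. C1qc, at 1.26, was above Cd74 without cKO1. No other of the 10 genes had so high a ratio of cKO1 to cKO2. Its exons overlap Mir5107 in the annotation.

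H2-Aa, the alpha chain of the I-A class II molecule, was at 3.25 and 3.30 in WT and at 13.1 and 5.34 in cKO1 and cKO2. Again the cKO libraries lay above WT but differed, and the gene rose by 1.145 on the log2 scale (standard error 0.362, limma adjusted p 0.0289). Without cKO1 it was 0.57 and not called (limma adjusted p 0.427, range over 13 alternatives 0.00131 to 0.427). H2-Ab1, the beta chain, was at 14.2 and 6.44 in WT1 and WT2 and at 20.1 and 12.1 in cKO1 and cKO2. Here WT1 exceeded cKO2, so the groups overlapped. The log2 fold change of 0.64 was not called (95% interval -0.05 to 1.33, limma adjusted p 0.152). It was 1.16 without WT1 and 0.99 without cKO2, but 0.13 without WT2 and 0.30 without cKO1. Its size thus depended on single libraries. The H2 genes belong to a family of similar genes, and reads from near-identical stretches may have been divided among them, which makes these values uncertain.

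**Figure D2:**
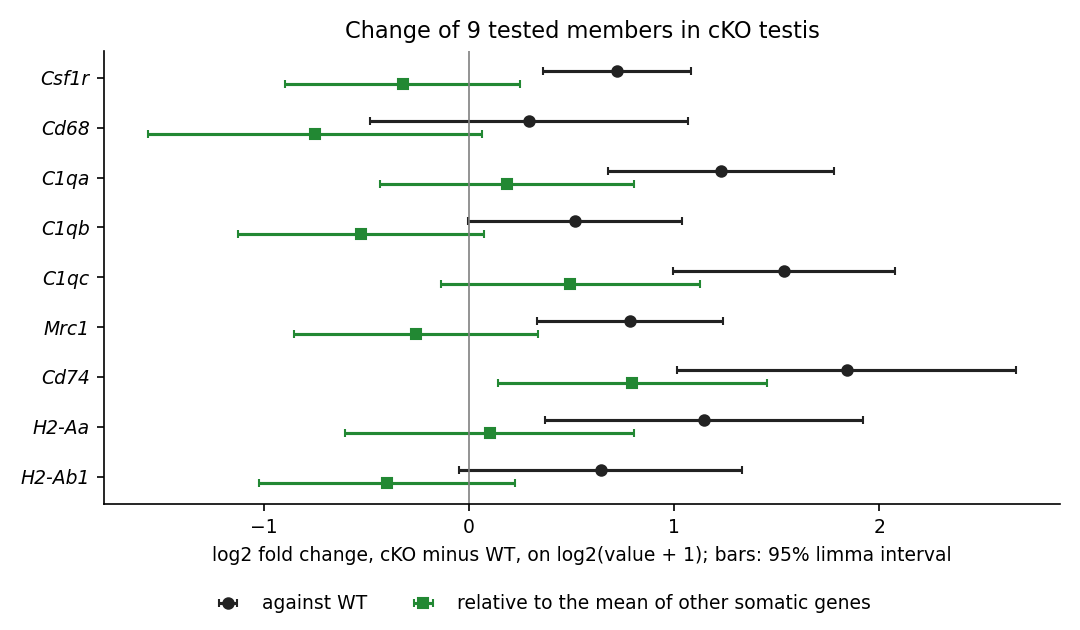
Log2 fold change of the 9 tested genes with 95% limma intervals, against WT (circles) and after each library was centred on the mean of 44 other somatic genes (squares). The intervals against WT lie above 0 for the 6 called genes. After centring, the interval of Cd74 alone lies away from 0.

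Levels per kilobase of exon allow a comparison between the genes. In WT the mean was 12.6 for C1qb and 7.94 for C1qa, followed by H2-Ab1 at 4.02, Csf1r at 3.74 and C1qc at 3.19. The libraries of H2-Ab1, from 2.51 to 5.53, spanned those of Csf1r and C1qc, so its place in the order is not resolved. Cd74 (2.48), Mrc1 (2.07), Cd68 (1.45), H2-Aa (0.862) and Adgre1 (0.260) came next. In cKO the order changed: C1qa (20.6) and C1qb (19.0) led with overlapping libraries, Cd74 (12.04) and C1qc (10.4) followed, and Csf1r and H2-Ab1 were both at 6.26. The cKO libraries of Cd74, 18.25 and 5.83, reached above the lower libraries of C1qa and C1qb and below both of Csf1r, so its place is not resolved. H2-Aa, at 2.43, passed Cd68, at 1.92, although the lower library of H2-Aa (1.40) was below the higher one of Cd68 (2.22).

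Other genes of these systems were counted from lists. Of the 2 ligands of the Csf1r receptor, Csf1 rose from 5.65 and 3.30 in WT to 12.7 and 9.02 in cKO (log2 fold change 1.13, limma adjusted p 0.0135). Il34, at 0.342 and 1.10 in WT and 1.11 and 1.78 in cKO, was not called. Of 12 tested genes in a list of 20 other macrophage genes, 4 rose, 1 fell and 7 were not called, with a median of 0.80. Lyz2, the macrophage lysozyme, rose from 6.16 and 4.87 to 22.7 and 17.9 (log2 fold change 1.71, limma adjusted p 0.000326). Mertk, a receptor for dying cells that Sertoli cells also use, and Fcer1g, an adaptor of immune receptors, rose too, and are named because so few genes of the list did. Aif1, known as the marker IBA1, fell from 107 and 144 to 77.9 and 85.1 (limma adjusted p 0.00781), and was the most abundant gene of this list. Cx3cr1, a chemokine receptor of some macrophages, was at 6.51 and 6.12 in WT and at 5.85 and 1.27 in cKO, and was not called. Of the 13 genes of this list with values, 10 had both cKO libraries above both WT libraries, and 2 had both below. Among all tested genes these shares were 34.8% and 31.5%. Most of the list's genes were thus higher in cKO, but not all moved in 1 direction.

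In the class II pathway list 3 of 8 tested genes rose, none fell, and the median was 0.58. H2-Eb1, the beta chain of the I-E molecule, rose from 3.94 and 1.41 to 12.95 and 5.97 (log2 fold change 1.515, limma adjusted p 0.0121). Lgmn, a lysosomal protease that processes antigen, rose from 13.01 and 10.5 to 38.7 and 24.8 (limma adjusted p 0.000892). Rfxank, a subunit of the factor that binds the X box, rose from 6.85 and 7.38 to 12.95 and 13.6 (limma adjusted p 0.0211). Rfx5, another subunit of that factor, was at 37.8 and 31.5 in WT and at 29.9 and 38.5 in cKO, with overlapping libraries. In the class I pathway list, whose products present peptides on nearly every cell type, 5 of 10 tested genes rose and none fell (median 0.59). H2-K1 rose from 52.2 and 36.9 to 109 and 70.1 (limma adjusted p 0.00275), and B2m, the light chain, from 16.9 and 8.79 to 58.4 and 18.0 (limma adjusted p 0.0209). Tapbp, which loads peptides, rose by less, with a log2 fold change of 0.39 (limma adjusted p 0.0334). Each of the 11 class I genes in the table was higher in cKO1 than in cKO2.

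Among complement partners, 4 of 9 tested genes rose and 1 fell (median 0.54). C1s1, a protease that binds C1q, rose from 7.70 and 7.38 to 32.5 and 20.5 (log2 fold change 1.65, limma adjusted p 0.000356). Serping1, the inhibitor of that protease, rose from 15.2 and 11.0 to 54.5 and 38.6 (log2 fold change 1.75, limma adjusted p 0.000111). C4b, a substrate of the same protease, fell from 13.2 and 11.8 to 5.71 and 4.70 (log2 fold change -1.12, limma adjusted p 0.00599). C3, on which the cascade converges, had 7 to 19 reads per library and was not called. Parts of 1 cascade therefore moved in opposite directions.

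In the interferon response list 5 of 8 tested genes rose and none fell (median 0.97). Bst2 and Irf1 rose with log2 fold changes of 1.11 and 1.41, from levels under 4 in WT. Of 2 tested cytokine genes, Tgfb1 rose from 5.82 and 6.12 to 22.1 and 16.9 (log2 fold change 1.55, limma adjusted p 0.000519), and Il1b, at 2.57 and 2.67 in WT and 3.34 and 3.43 in cKO, was not called. In the lysosome list, whose products many cell types share, 8 of 11 rose and none fell (median 0.94). Psap, a precursor of lysosomal activator proteins, rose from 149 and 133 to 469 and 377 (log2 fold change 1.57, limma adjusted p 1.605e-05). Lamp1, at 359 and 382 in WT and 362 and 380 in cKO, was not called.

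Markers of other blood cells were few. Of lists for T cells, B cells, dendritic cells, monocytes, neutrophils and erythroid cells, no gene was called higher by limma, and none was higher at an unadjusted p under 0.05. At that unadjusted threshold Cd3d of the T cell list and Plac8, the 1 monocyte gene tested, were lower (limma unadjusted p 0.0232 and 0.0408). Neither was called after adjustment. Cd247 of the T cell list was at 21.2 and 20.9 in WT and 21.7 and 20.5 in cKO, and Zbtb46 of the dendritic cell list was at 17.1 and 17.0 in WT and 16.7 and 13.6 in cKO. Pax5, a B cell factor, fell from 43.8 and 39.6 to 21.5 and 25.5 (limma adjusted p 0.00286). No NK cell gene of the list was analysed here, nor were defining genes such as Ptprc and Cd3e. Of 4 tested pan-leukocyte genes, Lcp1, an actin-bundling protein, rose from 0.685 and 1.41 to 6.96 and 3.43 (limma adjusted p 0.00794). The summed level of these pan-leukocyte genes was 5.65 and 7.38 in WT and 16.6 and 9.40 in cKO. Hdc, the 1 mast cell gene tested, rose from 24.3 and 17.7 to 30.9 and 31.8 (limma adjusted p 0.0335). The part of these cell types in the changes of the 10 genes was not tested.

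**Figure D3:**
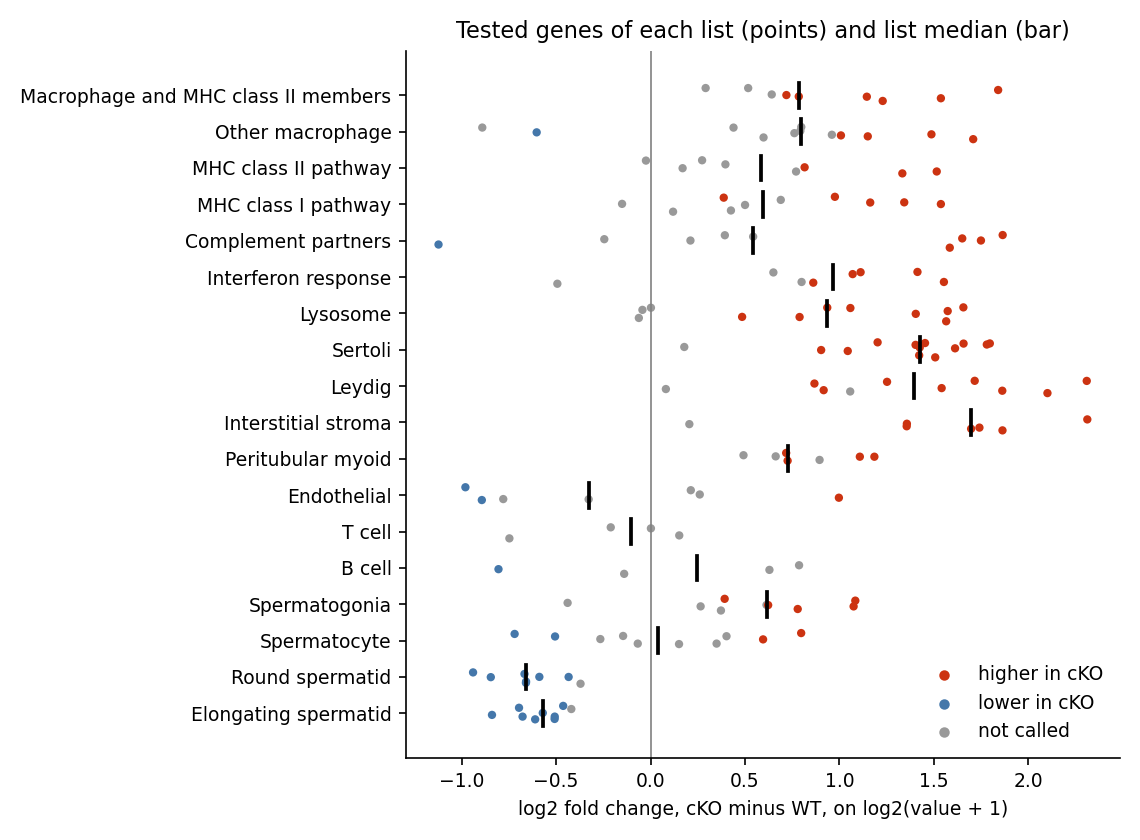
Log2 fold change of every tested gene in 18 lists (points, coloured by call) with the median of each list (bar). The median of the 9 tested macrophage and class II genes, 0.78, lies below those of the Sertoli, Leydig and interstitial stroma lists and above that of the endothelial list.

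Transcripts of the other somatic cells were higher as well. In 5 lists together, 31 of 44 tested genes rose, 2 fell and 11 were not called, with a median of 1.19, against 0.78 for the macrophage and class II genes. The lists differed among themselves. In the list of Sertoli cells, which nurse the germ cells, 12 of 13 rose (median 1.43), among them Clu from 252 and 224 to 810 and 694 (log2 fold change 1.66, limma adjusted p 1.168e-05). In the list of Leydig cells, which make testosterone, 8 of 10 rose (median 1.40), among them Cyp17a1 from 95.2 and 87.6 to 298 and 160 (log2 fold change 1.25, limma adjusted p 0.000726). In the interstitial stroma list 6 of 7 rose (median 1.70), among them Pdgfra with a log2 fold change of 2.31. Of peritubular myoid genes 4 of 7 rose (median 0.73). Of 7 endothelial genes 1 rose (Cdh5) and 2 fell (Vwf and Tek), with a median of -0.33.

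The ratio of the mean summed level in cKO to that in WT put the 10 genes in the same range. It was 2.05 for them, 2.83 for Sertoli, 2.48 for Leydig, 3.67 for stroma, 1.85 for peritubular myoid and 0.741 for endothelial genes. Libraries moved these ratios. Against the WT mean, cKO1 and cKO2 were 2.53-fold and 1.58-fold for the 10 genes, 3.12-fold and 1.84-fold for Leydig genes, 4.42-fold and 2.92-fold for stroma genes, and 3.08-fold and 2.59-fold for Sertoli genes. They were 1.93-fold and 1.77-fold for peritubular myoid genes and 0.782-fold and 0.700-fold for endothelial genes, so the gap between cKO1 and cKO2 differed from list to list. Leydig genes were higher in cKO1 than in cKO2 for 10 of 10 genes, as were the macrophage and class II genes, stroma genes for 7 of 7 and Sertoli genes for 12 of 13, but peritubular myoid genes for 3 of 7 and endothelial genes for 4 of 7. What sets cKO1 apart from cKO2 was not tested.

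Each gene was then tested against the other somatic genes, by subtracting from each library the mean log2 level of the 44 genes before the fit. That mean itself differed by 1.04 between cKO and WT. After centring, 67.4% of all tested genes were lower and 0.562% higher, 67.9% in all, as most genes had not followed the somatic mean. Of the 9 macrophage and class II genes 1 was called higher, Cd74, and none lower. Cd74 exceeded the somatic mean by 0.80 (95% interval 0.14 to 1.45, limma adjusted p 0.0269). It lost the call without WT1 (0.62, limma adjusted p 0.200), without WT2 (0.98, limma adjusted p 0.0585) and without cKO1 (0.20, limma adjusted p 0.712), with a range over 15 alternatives of 0.001004 to 0.712.

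The other 8 could not be told apart from the somatic mean at this sample size. C1qc (0.49, 95% interval -0.14 to 1.13), C1qa (0.19, -0.43 to 0.80) and H2-Aa (0.10, -0.60 to 0.81) lay above it. Mrc1 (-0.26, -0.86 to 0.34), Csf1r (-0.32, -0.90 to 0.25), H2-Ab1 (-0.40, -1.03 to 0.22), C1qb (-0.53, -1.13 to 0.07) and Cd68 (-0.75, -1.57 to 0.06) lay below it. These intervals admit differences of more than 1.5-fold in some direction for each gene, so equal changes are not shown. The choice of reference mattered. Against the Sertoli list alone 5 of the 9 were called lower (Csf1r, Cd68, C1qb, Mrc1 and H2-Ab1) and none higher, where 82.4% of all tested genes were lower and 0.189% higher. That count of 5 is thus not above the share of all genes. Against the Leydig list alone none of the 9 was called in either direction, where 54.3% of all tested genes were lower and 0.00484% higher.

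In cultured EpiLCs and PGCLCs most of the 10 genes were near 0. The tables were normalised separately, so levels are only set side by side. C1qb and C1qc had no read in any of 22 libraries, and C1qa had 1 read in 1 library. H2-Aa did not exceed 4 reads, nor did Adgre1, and Csf1r did not exceed 8. Cd74 was between 0 and 2.28, and Mrc1 between 1.15 and 6.20. Cd68 was an exception. It was between 9.45 and 17.1 in the dTAG13 experiment, whose agent degrades tagged proteins, and between 9.55 and 31.2 in the overexpression experiment, above each testis library. Its transcript was thus present in cultures in which C1qb and C1qc had no read.

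**Figure D4:**
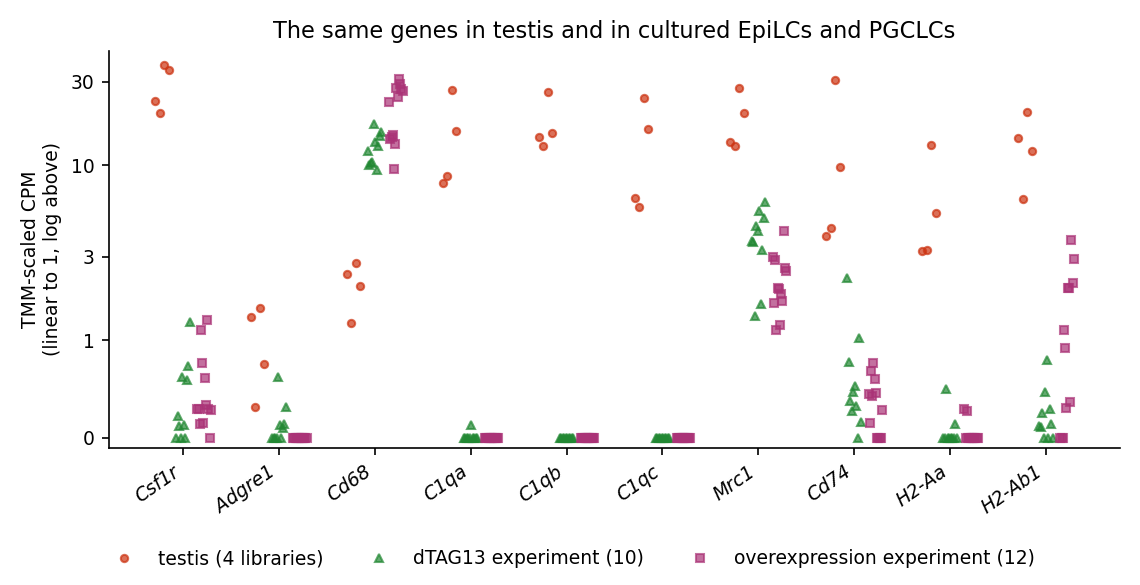
Level of the 10 genes in the 4 testis libraries and in the 10 and 12 libraries of cultured cells, in TMM-scaled CPM (axis linear to 1 and log above), 1 point per library. Cd68 is higher in cultures than in testis, and the 3 C1q genes are at 0 in cultures except for a single read of C1qa.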

How the data were processed

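Each library's deposited value per gene is a signal, CPM over a TMM-scaled library size, by the authors' table names and the steps between values. The submitters' processing notes name Bowtie2 2.3.4.3, SAMtools 1.9, HTSeq 0.11.2, edgeR 3.26.8 and build mm10, without their roles. RNA was extracted with Trizol, per the labels' protocols, which name kits of NuGEN and TECAN by batch and do not say which the testis libraries used; aligner settings, annotation and strand of counting are not given in the sources used here. Testis values were whole multiples of 1 step per library, so whole reads were recovered for 100% of the low values (within 0.05 of a whole number). The testis table also holds a log2 fold change, p-value and FDR per gene from the authors' own comparison, per the file headers, and these were not used for any result.

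Testis libraries were compared with limma 3.58.1 in R 4.3.3, with a mean-variance trend, on log2(value + 1), keeping genes whose mean over the 4 libraries reached 1. The test was also checked on simulated data of 20658 genes. It called 80 of 100 genes with a true 2-fold change and 100 of 100 with a true 4-fold change, with 8 false calls. The simulation gave every gene the same relative spread and changed only genes with many reads. It therefore does not cover genes with few reads or cKO libraries as unequal as those here. edgeR 4.0.16 and DESeq2 1.42.0 on recovered reads, other pseudocounts, filters and scalings, the replicate block and leaving out each library were alternatives. Exon lengths and positions are from GENCODE M21. The 10 genes and all lists were chosen with earlier results of these data known. Named are all 10 genes, Tex10, and per list at most the 3 called genes and the 1 uncalled gene with the highest means, with exceptions stated. No table column of per-sample values was left out. Some genes of the lists are counted but not reported by name here.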

Additional observations from a re-analysis of the deposited data

How the results depend on the processing

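The number of genes called in testis was 6016, and it was 2135 without the variance trend and 1978 when a log2 fold change of at least 1 either way was also asked for. edgeR called 5904, DESeq2 4373 and quantile normalization 4891, and leaving out a library gave from 3199 (without cKO1) to 6119. Of the macrophage and class II genes 6 were called, 1 without the variance trend (C1qc), 4 after quantile normalization, 6 with edgeR and 6 with DESeq2, and from 2 (without cKO1) to 8 (without cKO2) with a library left out. Their median of 0.78 ran from 0.568 to 1.1374 with a library left out, and that of the other somatic genes from 1.0427 to 1.4926. Relative to the other somatic genes 1 was called (Cd74, higher), and 2 were called without the variance trend (Cd74 higher and Cd68 lower). The count was 0 when a log2 fold change of at least 1 was also asked for, 5 against Sertoli genes (all lower) and 0 against Leydig genes. With a library left out, Cd74 ran from 0.198 to 1.395 relative to the other somatic genes. With a minimum mean of 5 and after quantile normalization the 1 gene called relative to them was C1qb, lower, in place of Cd74. The 6 macrophage and class II genes called against WT were higher than in WT under each of their 13 alternatives, and Cd74 was above the other somatic genes under each of its 15; directions of the other called genes were not compared by setting. Replicate numbers in the labels do not mark a shared litter or day, and same-numbered libraries had a correlation of deviations of 0.116 over 2 pairs. With the number as a replicate block 7185 genes were called, 7 of them macrophage and class II genes (H2-Ab1 in addition, adjusted p 0.0328), and 2 relative to the other somatic genes (C1qb in addition, lower). The 2 libraries per group and 2 to 20 reads for Adgre1 and Cd68 limit what could be seen.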

Other observations

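H2-Ab1, the class II beta chain, had more than 3 reads in 7 of 12 libraries of the overexpression experiment, and its partner H2-Aa in 0 of 12. There it was at 0 in the 3 EpiLC libraries and at 1.15, 0.924 and 0.303 at day 2. It was at 1.99, 2.005 and 0.373 at day 4, and at 3.76, 2.12 and 2.91 at day 6 of PGCLC induction (EV, OE1 and OE2 in each case). The day 6 libraries were thus the highest of this experiment, in EV as well as in OE1 and OE2. For OE1 the margin over day 4 was below the level of 1 read, 0.163, and so within counting error. In the dTAG13 experiment, which ended at day 4, it did not exceed 0.803. The pattern was noticed after the values had been seen and was not tested.

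Cd68 in the same experiment was between 9.55 and 22.8 in EpiLCs and at day 2 and between 24.4 and 31.2 at day 4 and day 6, so the later libraries lay above the earlier ones without overlap. These values are descriptive, from 1 EV and 2 overexpression libraries at each stage.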
